A study of Mus musculus with 6 samples.

Results

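Genes of the T cell receptor complex, its co-receptors and its first signalling enzymes were followed in whole mouse lung. The set held 10 genes (Cd3d, Cd3e, Cd3g, Cd4, Cd8a, Cd8b1, Lck, Il7r, Cd28 and Zap70) of the 21630 named genes on the array. Each was found by its gene symbol in the table of log2 expression values, and each had 1 probe set, so that no choice between probe sets was needed. The lungs came from 6 mice of the C57BL/6 strain, aged 8 weeks, which had been injected intraperitoneally with 100 uL of medium every day for 7 days. Control mice (replicates 2 and 4) are labelled as the RPMI control, RPMI being a standard culture medium. PC3 mice (replicates 4 and 5) received conditioned medium of PC3, a line of human prostate cancer cells, and LN4 mice (replicates 1 and 3) were given medium conditioned by PC3M-LN4 cells, a metastatic derivative of that line. All 3 groups held 2 mice with 1 array each and shared strain, age and injection schedule. The conditioned media came from human cell lines, the labels name no tumour in the mice, and it is not stated whether mice of one group shared a cage or litter. The p-values therefore measure only the spread between these lungs.

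T cells recognise peptides held by MHC molecules through the T cell receptor, whose antigen-binding chains have almost no cytoplasmic part. The signal is passed by the CD3 chains, which carry tyrosine motifs that the kinase Lck phosphorylates and to which the kinase Zap70 then binds. CD4 and CD8 bind the MHC molecule from the side and bring Lck to the receptor, CD28 gives the co-stimulatory signal, and the interleukin-7 receptor keeps resting T cells alive. Healthy lung holds T cells in its vessels, around its airways and in its walls, where they are a minority beside epithelial, endothelial and myeloid cells.

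Values are log2 values from RMA, the authors' normalisation, so that a difference of 1 is a doubling. LN4 replicate 3 and PC3 replicate 4 differed from the rest in stratified squamous genes, and LN4 replicate 3 also in skeletal muscle genes. The T cell results are given with and without both arrays. In LN4 replicate 3, all 8 of 8 stratified squamous genes and all 8 of 8 skeletal muscle genes exceeded the 95th percentile of the 5222 negative control probe sets, and in PC3 replicate 4, 3 of the 8 squamous genes and none of the muscle genes did. In the other arrays none of these 16 genes did. Where the transcripts of these genes came from was not tested. The share of probe sets that the authors' report counts as detected lay between 35.4% and 39.8% in 1 array of each group (Control replicate 2, PC3 replicate 4 and LN4 replicate 1) and between 46.1% and 50.9% in the other. These are called the low-detection and the high-detection arrays. The lung label was borne out by surfactant and club cell genes, with 6 of 6 lung epithelial genes above that percentile in every array.

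None of the 10 T cell genes exceeded the 95th percentile of the negative controls in any lung. Depending on the array, 95% of the negative controls were below 7.37 to 7.69, and the highest value of any T cell gene was 6.87, for Cd3e in LN4 replicate 1. The median of all tested probe sets, 7.11 to 7.17, was also below this limit in every array, so lying under it does not set the T cell genes apart. Among all probe sets other than controls, the means of the 10 genes lay from percentile 26.3 (Cd28) to 52.7 (Cd3e). Between 81.9% and 88.4% of the negative controls lay below Cd3e, depending on the array. For Cd28 the share was between 46.1% and 59.2%, so its signal was that of a typical negative control, and for Cd4 it was between 58.0% and 64.9%. The other 7 genes lay above 64.7% to 87.4% of the controls. A bulk sample cannot tell fewer T cells from less RNA per T cell.

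**Figure D1:**
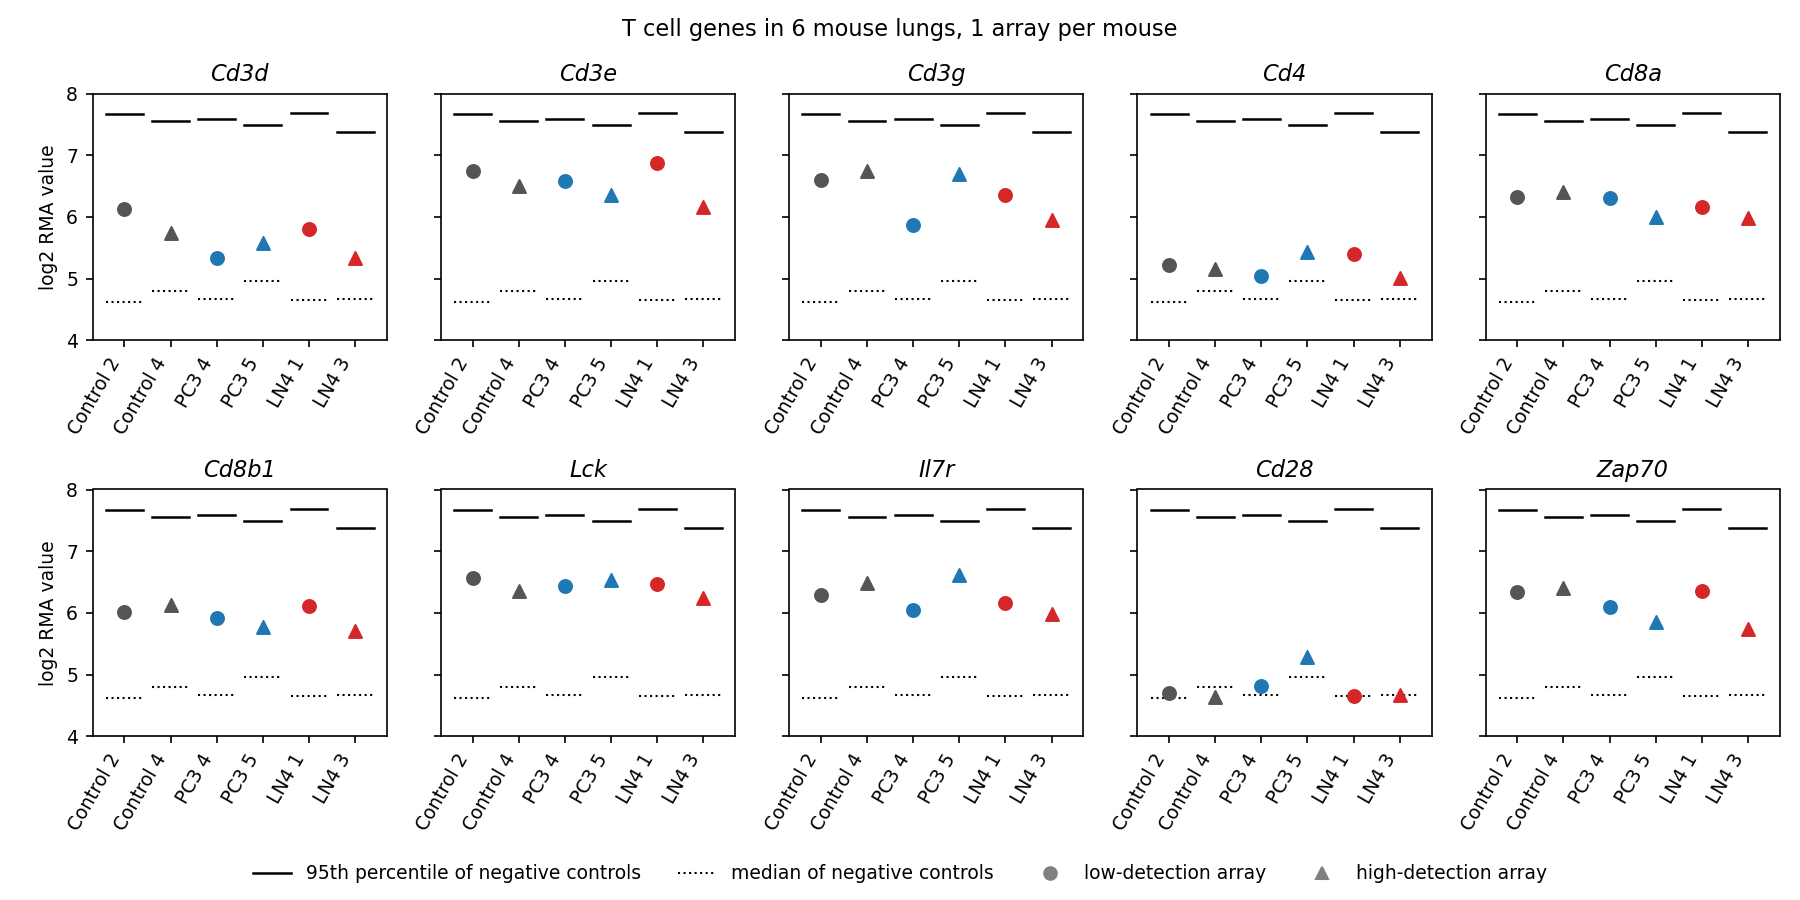
Log2 RMA values (vertical axis) of the 10 T cell genes in the 6 arrays (horizontal axis), with circles for low-detection and triangles for high-detection arrays. Solid lines are the 95th percentile and dotted lines the median of the negative controls of each array: every point lies below the solid line, and Cd28 lies on or near the dotted one in 5 arrays.

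The CD3 chains are encoded side by side on mouse chromosome 9. In the RefSeq promoter table (build GRCm38.p6) the starts of Cd3d and Cd3g lie 1355 bases apart and point away from each other, and the start of Cd3e lies 27825 bases from that of Cd3d. The upstream sequences are shown as a description of the genes, and their part in the values of these lungs was not tested. Each line holds the 190 bases from 250 to 61 before the annotated start, 5' to 3' on the strand of the gene, from chr9:44981536-44981725 (plus strand) for Cd3d, chr9:44980492-44980681 (minus strand) for Cd3g and chr9:45009672-45009861 (minus strand) for Cd3e. Capitals mark GGAA on either strand, the core that ETS factors bind, and the E-box pattern CANNTG.
Cd3d: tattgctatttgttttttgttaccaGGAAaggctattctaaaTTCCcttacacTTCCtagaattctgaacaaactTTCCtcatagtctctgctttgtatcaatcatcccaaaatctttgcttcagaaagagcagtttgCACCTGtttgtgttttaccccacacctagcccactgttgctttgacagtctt
Cd3g: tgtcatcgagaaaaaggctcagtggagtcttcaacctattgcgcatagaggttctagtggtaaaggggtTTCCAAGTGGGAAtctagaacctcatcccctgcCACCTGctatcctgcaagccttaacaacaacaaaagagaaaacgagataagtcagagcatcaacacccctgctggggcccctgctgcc
Cd3e: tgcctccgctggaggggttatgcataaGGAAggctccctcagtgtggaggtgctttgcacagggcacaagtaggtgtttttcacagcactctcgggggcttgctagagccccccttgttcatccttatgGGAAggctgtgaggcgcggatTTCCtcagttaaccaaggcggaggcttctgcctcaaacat
The window of Cd3d held 4 matches to GGAA or TTCC and 1 to CANNTG, that of Cd3g 2 and 2, and that of Cd3e 3 and 0. In Cd3g the E-box farther from the start overlaps a TTCC by 1 base. Of all 32851 promoter windows of this length 87.9% held GGAA or TTCC and 57.3% held CANNTG, with medians of 2 and 1 matches. TATAAA, searched on both strands, was in none of the 3 windows and in 8.73% of all, and TGTGGT or ACCACA, the core that RUNX factors bind, was in none of the 3 and in 11% of all.

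Cd3d, the delta chain, was at 6.13 and 5.73 in Control replicates 2 and 4. It was at 5.33 and 5.57 in PC3 replicates 4 and 5, and at 5.81 and 5.33 in LN4 replicates 1 and 3. Both PC3 lungs lay below both Control lungs, while LN4 overlapped with Control. Cd3g, the gamma chain, was at 6.60 and 6.75 in Control, at 5.86 and 6.70 in PC3 lungs, and 6.36 and 5.95 in LN4 lungs in the same order. Its low values were those of PC3 replicate 4 and LN4 replicate 3, and both LN4 lungs lay below both Control lungs. Cd3e, the epsilon chain, which pairs with both the delta and the gamma chain, was at 6.74 and 6.51 in Control, 6.58 and 6.35 in PC3 lungs, and 6.87 and 6.16 in LN4 lungs. Its highest and its lowest value were both in the LN4 group. PC3 replicate 4, in which Cd3d was 0.79 and Cd3g 0.74 lower than in the low-detection Control array, had Cd3e only 0.16 lower.

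Among the co-receptors, Cd8a and Cd8b1, the 2 chains of CD8 on cytotoxic T cells, had similar profiles. Cd8a was at 6.32 and 6.40 in Control lungs, 6.30 and 6.00 in PC3 lungs, and 6.16 and 5.98 in LN4 lungs. All 4 lungs given conditioned medium lay below both Control lungs, by as little as 0.02 in PC3 replicate 4. Cd8b1 was at 6.02 and 6.13 in Control, 5.91 and 5.77 in PC3 lungs, and 6.11 and 5.70 in LN4 lungs. Here LN4 replicate 1 lay between the Control lungs, and the other 3 lay below them. Cd4, the co-receptor of helper T cells, was at 5.22 and 5.15 in Control, 5.04 and 5.43 in PC3 lungs, and 5.39 and 5.01 in LN4 lungs. Each of the PC3 and LN4 groups held 1 lung above and 1 below both Control lungs.

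The kinase genes differed from each other. Lck was at 6.56 and 6.36 in Control, 6.44 and 6.53 in PC3 lungs, and 6.46 and 6.23 in LN4 lungs, the narrowest range of the 10 genes. The PC3 lungs lay inside the Control range. Zap70 was at 6.34 and 6.39 in Control, 6.09 and 5.85 in PC3 lungs, and 6.36 and 5.74 in LN4 lungs. Both PC3 lungs were below Control, and LN4 replicate 1 lay inside the Control range while replicate 3 was the lowest of all.

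Il7r, the specific chain of the interleukin-7 receptor, was at 6.29 and 6.48 in Control, 6.05 and 6.61 in PC3 lungs, and 6.15 and 5.99 in LN4 lungs. Both LN4 lungs lay below both Control lungs, and the PC3 lungs lay on either side of them. Cd28, the co-stimulatory receptor, was at 4.71 and 4.64 in Control, 4.81 and 5.29 in PC3 lungs, and 4.65 and 4.67 in LN4 lungs. It was the one gene of the set with both PC3 lungs above both Control lungs, at the level of the negative controls. Over the set, LN4 replicate 3 held the lowest value of 8 of the 10 genes. The highest values were spread, with 4 in Control replicate 4, 3 in PC3 replicate 5, 2 in Control replicate 2 and 1 in LN4 replicate 1.

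The first comparison, of PC3 with Control lungs, asked what medium from the less metastatic cells did to the T cell genes of the lung. Of the 10 genes 7 had a lower mean in PC3 lungs, where 46.6% of all tested probe sets did. Their median change was -0.18, against 0.02 over all tested probe sets. The largest differences were in Cd3d, at 5.45 ± 0.17 in PC3 and 5.93 ± 0.28 in Control lungs (SD, n = 2), in Cd3g at -0.40 (SE 0.30) and in Zap70, at 5.97 ± 0.17 and 6.37 ± 0.04. Cd8b1 differed by -0.23 (SE 0.21) and Cd8a by -0.21 (SE 0.19), whereas Cd28 differed by 0.37 (SE 0.21). In the limma fit none of the 10 passed, with an adjusted p of 1 for each and unadjusted p-values from 0.092 (Cd3d) upward. The Cd3d difference of -0.48 had a 95% interval from -1.06 to 0.10. Of all 21330 tested probe sets 0% passed an adjusted p of 0.05, and 0 of the 10 genes had an unadjusted p under 0.05, against 1.71% of all tested probe sets as lower and 0.525% as higher. Arrays without overlap were found for 4 of the 10 genes in the lower direction (Cd3d, Cd8a, Cd8b1, Zap70) and for 1 in the higher (Cd28), against 15.3% and 16.4% of all tested probe sets. PC3 replicate 4, the lung with squamous genes, held 9 of the 10 genes below the Control mean and PC3 replicate 5 held 5. Without PC3 replicate 4, Cd3g differed by 0.025 in place of -0.40, Il7r by 0.22 in place of -0.06, and the median of the 10 was -0.12.

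The second comparison, of LN4 with Control lungs, asked the same of medium from the metastatic line. Of the 10 genes 9 had a lower mean in LN4 lungs, where 53.1% of all tested probe sets did, and the median change was -0.23 against -0.02 over all tested probe sets. Cd3g was at 6.15 ± 0.29 in LN4 and 6.68 ± 0.10 in Control lungs (SD, n = 2), Cd3d at 5.57 ± 0.34 and 5.93 ± 0.28, and Il7r at 6.07 ± 0.12 and 6.39 ± 0.13. Zap70 differed by -0.32 (SE 0.24) and Cd8a by -0.29 (SE 0.19). Cd4 differed by 0.02 (SE 0.22) and Cd28 by -0.02 (SE 0.21). This lower median rested on LN4 replicate 3. In that lung all 10 genes lay below the Control mean, by a median of 0.39, and in LN4 replicate 1 it was 6 of 10, with a median of -0.02. Without replicate 3 the sign turned for Cd3e, from -0.11 to 0.25, for Cd8b1, from -0.17 to 0.034, and for Lck, from -0.11 to 1e-05. Relative to Ptprc, a leukocyte gene that was itself lower in LN4 lungs, the median of the 10 was 0.47. Ptprc exceeded the negative controls in every array and the 10 genes in none, so this value does not give T cells as a share of leukocytes. The part that the high squamous and muscle genes of this array had in the lower T cell values was not tested.

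None of the 10 passed in the limma fit of LN4 against Control. The adjusted p was 0.9997 for each, and the smallest unadjusted p was 0.128, for Cd3g, whose change of -0.52 had a 95% interval from -1.24 to 0.20. Of all tested probe sets 0% passed an adjusted p of 0.05, and 0 of the 10 genes had an unadjusted p under 0.05, against 1.2% of all tested probe sets as lower and 0.849% as higher. Arrays without overlap were found for 3 of the 10 genes, Cd3g, Cd8a and Il7r, all in the lower direction, against 16.9% of all tested probe sets. The intervals of the 10 genes together reached from -1.24 to 0.54, from the low end for Cd3g to the high end for Cd4, and true differences within those intervals are not excluded.

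LN4 and PC3 lungs were then compared directly, to ask whether the media of both cell lines differed. The T cell genes had a median change of -0.06 (LN4 minus PC3), against -0.01 over all tested probe sets, and 6 of 10 were lower, against 52.2% of all tested probe sets. The direction of that median was not stable: it was 0.059 with both arrays that hold squamous genes left out, 0.12 without LN4 replicate 3 alone, -0.24 without LN4 replicate 1 and 0.60 relative to Ptprc (the gene of CD45, carried by all leukocytes). With both left out, Cd3e differed by 0.52 in place of 0.05, Zap70 by 0.50 in place of 0.07 and Cd8a by 0.15 in place of -0.08. Cd28 differed most, at -0.39 (SE 0.21, adjusted p = 0.8424 in the limma fit), and was the one gene whose arrays did not overlap, where 18.1% of all tested probe sets were lower without overlap. Il7r differed by -0.26 (SE 0.23), Cd3d by 0.11 (SE 0.24) and Lck by -0.14 (SE 0.19). Of all tested probe sets 0% passed an adjusted p of 0.05, and 0 of the 10 genes had an unadjusted p under 0.05, against 2.93% of all tested probe sets as lower and 2.2% as higher. The intervals ran from -0.89 (Cd28) to 0.69 (Cd3d), so differences of that size between the media are not shown to be absent. The comparisons with Control share the same 2 Control lungs and are not independent of each other.

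**Figure D2:**
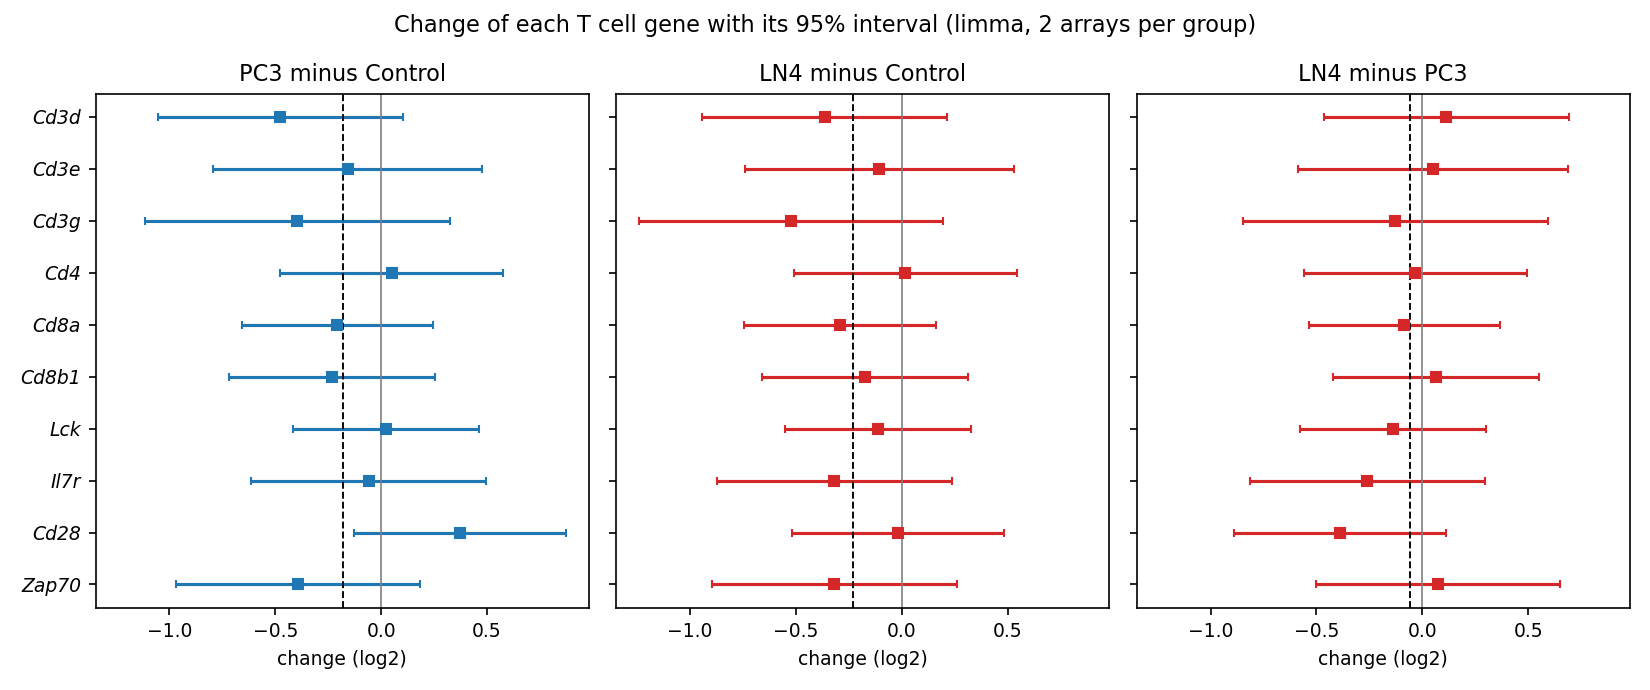
Change on the log2 scale (horizontal axis) of each of the 10 T cell genes (vertical axis) in the 3 comparisons, with bars for the 95% interval of the limma fit and a dashed line at the median of the 10. Every interval crosses 0, and the medians lie at -0.18, -0.23 and -0.06.

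Because detection differed by about as much in every group, each comparison was also read within arrays of like detection. In the PC3 comparison 9 of the 10 genes were lower in the low-detection pair and 6 in the high-detection pair, with medians of -0.17 and -0.10. Cd3d and Cd3g were lower mainly in the first pair (-0.79 and -0.74 against -0.16 and -0.05), and Zap70 mainly in the second (-0.25 against -0.54). In the LN4 comparison the medians were -0.08 for the low-detection pair and -0.41 for the high-detection pair, which includes LN4 replicate 3. Genes lower in both pairs numbered 5, among them Cd3d at -0.32 and -0.41 and Cd8a at -0.17 and -0.42. Between LN4 and PC3, 8 of the 10 genes had opposite signs in the pairs. Cd3g was 0.49 higher in LN4 between the low-detection arrays, where the PC3 lung carried squamous genes, and 0.75 lower between the high-detection arrays, where the LN4 lung did.

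**Figure D3:**
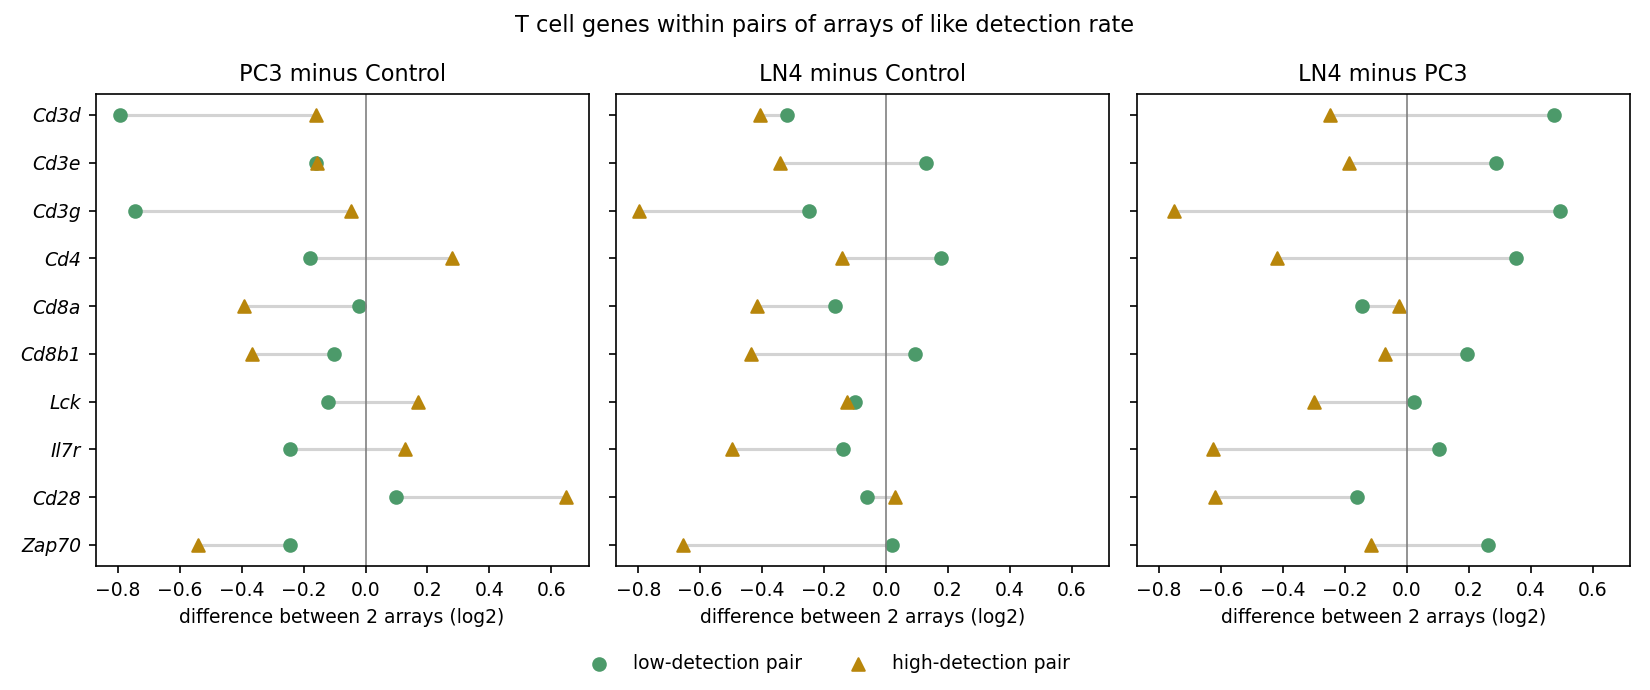
Difference on the log2 scale (horizontal axis) between 2 arrays of the compared groups for each T cell gene (vertical axis), with circles for the low-detection and triangles for the high-detection pair. In LN4 minus PC3 the circles lie mostly to the right of 0, with a median of 0.23, and all triangles to the left, with a median of -0.27.

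Mice of one group differed by amounts similar to those between the groups. In the Control group the 2 lungs differed by a median of 0.13 per T cell gene, regardless of sign, against 0.17 over all tested probe sets. In the PC3 group the figures were 0.27 and 0.24, and the genes went both ways: PC3 replicate 5 was higher than replicate 4 by 0.84 for Cd3g, 0.56 for Il7r, 0.48 for Cd28 and 0.39 for Cd4, and lower by 0.30 for Cd8a and 0.24 for Zap70. In the LN4 group the median gap was 0.39 against 0.31, and 9 of the 10 genes were lower in replicate 3, Cd3e by 0.71 and Zap70 by 0.62.

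Other genes of the receptor pathway gave a mixed picture. For this and the later lists, 46.6% of all tested probe sets were lower in PC3 and 53.1% in LN4 lungs. Of 18 genes of proximal signalling, 10 were lower and 8 higher in PC3 lungs (median -0.02) and 13 lower and 5 higher in LN4 lungs (median -0.09), and none passed the adjusted test in either comparison. Cd247, the zeta chain of the complex, named here after its values were seen, was at 6.22 ± 0.15 in Control, 6.15 ± 0.33 in PC3 lungs, and 6.05 ± 0.13 in LN4 lungs (SD, n = 2). Lat, the membrane adaptor that Zap70 phosphorylates, differed by -0.55 (SE 0.36) in PC3 and -0.44 (SE 0.36) in LN4 lungs. Grap2, an adaptor that joins Lat to Lcp2, differed by 0.25 (SE 0.17) and -0.34 (SE 0.17), and Ptpn22, a phosphatase that restrains Lck, by 0.33 (SE 0.18) and -0.09 (SE 0.18). Ptprc encodes CD45, a phosphatase on all leukocytes that keeps Lck active. Unlike the 10 T cell genes it exceeded the negative controls in every array, at 9.04 and 9.29 in Control, 8.86 and 9.38 in PC3 lungs, and 8.64 and 8.28 in LN4 lungs. Both LN4 lungs were the lowest, at -0.70 (SE 0.25, unadjusted p = 0.0258, adjusted p = 0.9997 in the limma fit), and the difference was -0.39 and -1.01 within the detection pairs.

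Surface and co-stimulatory molecules of T cells had 10 tested genes of 15, with 4 lower in PC3 (median 0.06) and 5 lower in LN4 lungs (median 0.01), and none passed. Cd2, an adhesion receptor of T cells and NK cells, was the one of these named by the rule that exceeded the negative controls in all 6 arrays. It was at 8.34 and 8.36 in Control, 7.88 and 8.07 in PC3 lungs, and 7.92 and 7.67 in LN4 lungs. Every lung given conditioned medium lay below both Control lungs, by -0.38 (SE 0.19) in PC3 and -0.56 (SE 0.19) in LN4, with unadjusted p-values of 0.0799 and 0.02 and adjusted p-values of 1 and 0.9997 in the limma fit. Of all tested probe sets 15.3% in PC3 and 16.9% in LN4 were lower without overlap. Cd2 was picked for its small unadjusted p in both comparisons, so its separation from Control is no independent result. Icos, an inducible co-stimulator near the background, differed by -0.03 (SE 0.19) and -0.38 (SE 0.19), and Sit1, a membrane adaptor, by 0.25 (SE 0.27) and 0.15 (SE 0.27).

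Transcription factors of T cells had 11 of 13 genes lower in PC3 (median -0.14) and 8 of 13 lower in LN4 lungs (median -0.10), and none passed the adjusted test. The shares over all tested probe sets were 46.6% and 53.1%. Ets1, which is also expressed in endothelium, was at 9.31 ± 0.05 in Control, 9.09 ± 0.17 in PC3 lungs, and 8.75 ± 0.33 in LN4 lungs (SD, n = 2). Satb1, a chromatin organiser of T cells, differed by -0.17 (SE 0.20) and -0.46 (SE 0.20), and Tbx21, the factor of type 1 helper cells, by -0.33 (SE 0.18) and -0.10 (SE 0.18). Genes of naive T cell recirculation had 5 of 6 tested members lower in each comparison, with medians of -0.06 and -0.32, and none passed. Ccr7, the chemokine receptor that guides naive T cells to lymph nodes, was at 6.81 and 6.85 in Control, 6.56 and 6.47 in PC3 lungs, and 6.45 and 6.19 in LN4 lungs, below the negative control limit throughout. Klf2, which is also an endothelial gene, differed by -0.11 (SE 0.27) and -0.68 (SE 0.27), and its LN4 lungs stood at 8.93 and 8.16. Of 8 tested genes of the interleukin-7 receptor pathway 5 were lower in PC3 and 6 in LN4 lungs (medians -0.03 and -0.11), and none passed. Among them Il2rg, the chain shared by the receptors of several interleukins, differed by -0.38 (SE 0.25) and -0.50 (SE 0.25), Stat5b by 0.32 (SE 0.17) and -0.05 (SE 0.17), and Jak1 by -0.02 (SE 0.18) and -0.18 (SE 0.18). Of 12 symbols listed for the chains of the T cell receptor itself, none matched a named probe set, and these chains were not analysed here.

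Some T cell genes are shared with other lymphocytes, whose markers were read beside them. Among all tested probe sets 46.6% were lower in PC3 and 53.1% in LN4 lungs. NK cells, which also use Zap70 and Lck, had 6 of 8 tested markers lower in PC3 (median -0.33) and 7 of 8 in LN4 lungs (median -0.41). Nkg7, a granule protein of NK and cytotoxic T cells, was at 7.33 and 7.55 in Control, 6.64 and 7.28 in PC3 lungs, and 6.75 and 6.83 in LN4 lungs. B cell markers had 10 of 10 genes lower in both comparisons, with medians of -0.40 in PC3 and -0.64 in LN4 lungs, at least as large as those of the T cell genes in every lung given conditioned medium. Cd79b, which signals for the antigen receptor of B cells, was at 8.09 and 8.10 in Control, 7.52 and 7.64 in PC3 lungs, and 7.66 and 7.35 in LN4 lungs. In LN4 replicate 1 the median of the B cell markers lay 0.46 below the Control mean and that of the T cell genes 0.02 below. None of the NK or B cell markers passed the adjusted test, where 0% of all probe sets did, and 9 of the 10 B cell markers had an unadjusted p under 0.05 as lower in LN4 lungs, against 1.2% of all tested probe sets. These markers also lay mostly near background. In no array did more than 2 of the 10 B cell or 2 of the 12 NK markers exceed the negative control limit. Cd79b did so in 3 arrays and Nkg7 in none. The difference between the B cell and the T cell genes was not tested.

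Il7r also marks innate lymphoid cells, and Cd8a and Cd4 a part of the dendritic and myeloid cells. Markers of innate lymphoid cells had a median change of -0.11 in PC3 and 0.08 in LN4 lungs, with 4 and 2 of 6 tested genes lower. Those of conventional dendritic cells had medians of 0.06 and -0.12, with 3 and 8 of 8 lower. Myeloid markers had medians of 0.04 and -0.14, with 4 and 6 of 8 lower. Among all tested probe sets 46.6% were lower in PC3 and 53.1% in LN4 lungs. Thymus could reach a lung sample as neighbouring tissue. None of the 7 genes listed for its immature T cells exceeded the negative controls in any array, with Rag1 between 4.49 and 4.86 and Dntt between 3.57 and 4.17. The log2 of their summed linear level lay between 7.96 and 7.99 in Control, 7.92 and 8.00 in PC3 lungs, and 7.77 and 7.96 in LN4 lungs. Only 2 of the 7, Ptcra and Cd1d1, were bright enough to be tested, and the T cell genes did not exceed the negative controls either. A small amount of thymus could not be seen by this limit. Lymph node genes had summed levels of 9.94 to 10.16 in Control, 9.83 to 10.12 in PC3 and 9.77 to 10.12 in LN4 lungs, and Glycam1, which marks high endothelial venules of nodes, was between 3.75 and 4.22. The members went different ways, with 3 of 5 tested higher in PC3 (median 0.17) and 4 of 5 in LN4 lungs (median 0.07), and none passed. Chst4, a sulfotransferase of high endothelial venules, was at 6.79 and 7.12 in Control lungs, 8.51 and 7.51 in PC3 lungs, and 7.44 and 7.41 in LN4 lungs. All 4 lungs given conditioned medium lay above both Control lungs, by 1.05 (SE 0.33, unadjusted p = 0.0152, adjusted p = 1 in the limma fit) in PC3 and 0.47 (SE 0.33) in LN4. The higher PC3 value was that of replicate 4, the lung with squamous genes. Within the low-detection pair, which holds that lung, the PC3 difference was 1.72, and within the high-detection pair 0.39. Of all tested probe sets 16.4% in PC3 and 12% in LN4 were higher without overlap, and Chst4 was picked for its small unadjusted p. Ccl21a, a chemokine that draws in cells with Ccr7, differed by -0.47 (SE 0.22) in PC3 and -0.28 (SE 0.22) in LN4. It was the brightest lymph node gene in every array, at 8.97 to 9.65, and so weighed most in the summed level. At most 2 of the 6 lymph node genes exceeded the negative control limit in any array. The part of the lymph node genes in the T cell values was not tested. The summed level of the squamous genes was 8.08 to 8.12 in Control, 8.02 and 11.84 in PC3 lungs, and 8.24 and 15.65 in LN4 lungs, and that of the muscle genes 8.95 to 9.18, 8.93 to 9.09 and 9.19 and 14.02. Lung epithelial genes had a lower mean in LN4 lungs for 6 of 6 genes and in PC3 lungs for 2 of 6. They were lower in LN4 replicate 3 as well, by a median of 0.28 from the Control mean, where the T cell genes were lower by 0.39.

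**Figure D4:**
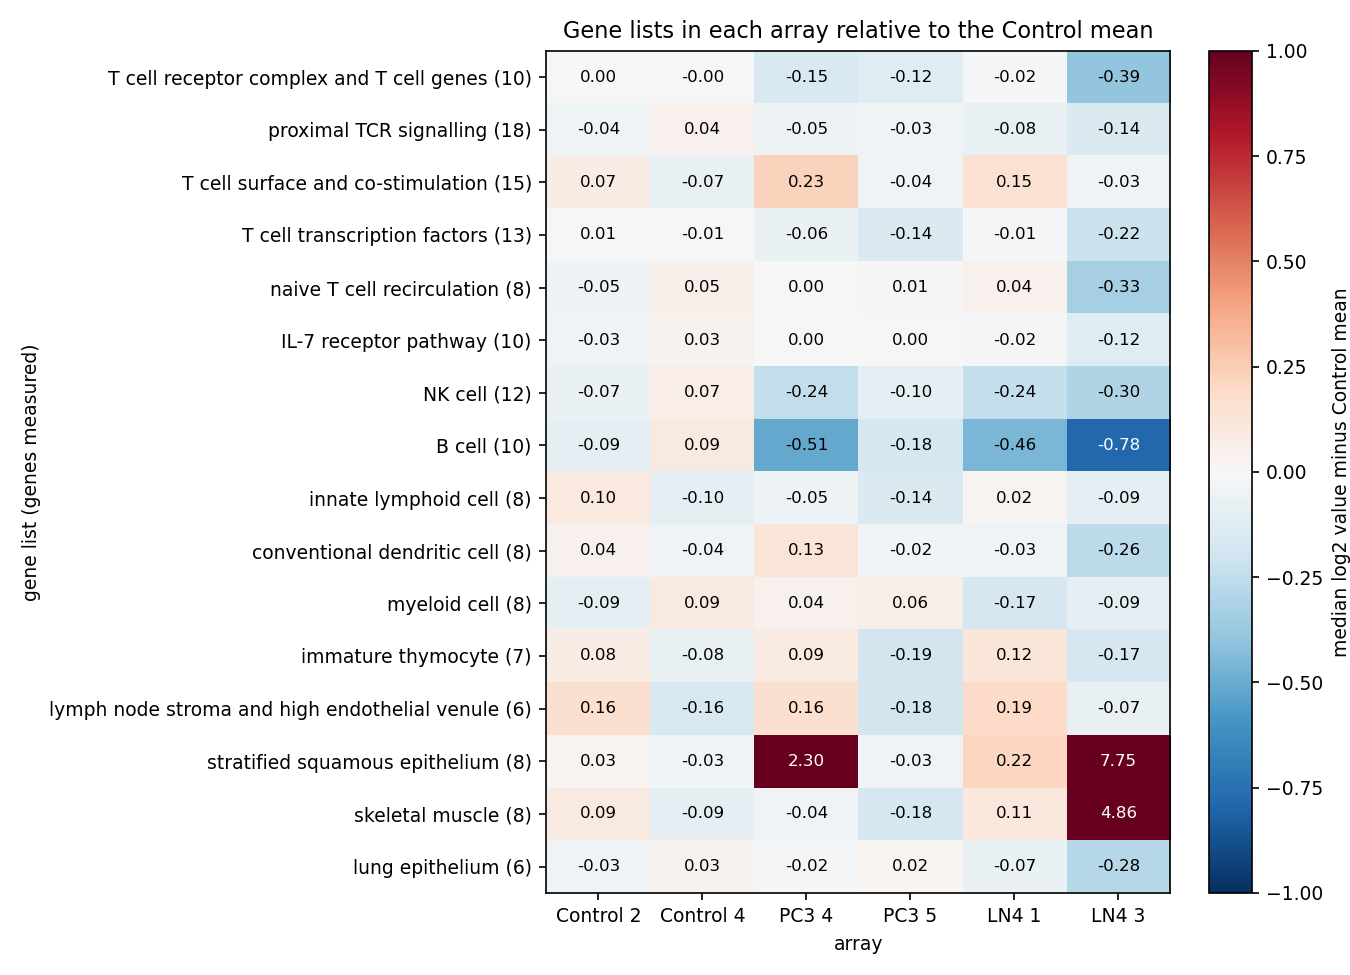
Median log2 value of each gene list (vertical axis, with the number of genes measured) minus its Control mean, in each array (horizontal axis), with colours clipped at -1 and 1. The 10 T cell genes stand at -0.15 and -0.12 in the PC3 arrays and at -0.02 and -0.39 in the LN4 arrays, and the B cell list is lower than them in each of these 4 arrays.

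The genes whose profile over the arrays was most like that of the CD3 chains were in none of the lists used here. The mean of Cd3d, Cd3e and Cd3g was 6.49 and 6.33 in Control, 5.93 and 6.21 in PC3 lungs, and 6.35 and 5.81 in LN4 lungs. Among 9263 named genes with an SD of at least 0.2 over the 6 arrays, the 8 most like it by Pearson correlation were Dtx3 (0.999), Gm3696, Gm10406, Mcee, Iftap, 4930555G01Rik, Stard3nl and Fhod1 (0.98). Dtx3, of the deltex family of ubiquitin ligases, was at 8.10 and 7.94 in Control, 7.55 and 7.82 in PC3 lungs, and 7.99 and 7.45 in LN4 lungs. In all, 131 genes correlated with the CD3 mean at over 0.9. Zap70 correlated at 0.78 and would rank 554, Cd8b1 at 0.73, Lck at 0.69, Cd4 at 0.63, Il7r at 0.59, Cd8a at 0.48 and Cd28 at -0.05. With 6 arrays that share 1 normalisation, these are descriptions of these lungs.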

How the data were processed

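Whole-lung RNA was hybridised to Affymetrix MoGene 1.0 ST arrays, 1 per mouse. The deposited log2 values are gene-level RMA values, named as such in the file headers and in the submitters' processing notes. RMA corrects background, equalises the arrays and summarises probes over all arrays together, so each value depends on all 6. Which software version was run is not given in the sources used here. Detected shares, in percent of exon-level probe sets, come from the authors' chip report, per the file headers. The gene table and the value table were equal for all 35556 probe sets.

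From these values 7116 control probe sets were left out, then the remaining probe sets whose mean was in the bottom 25%, which left 21330. All 10 T cell genes passed that filter. Symbols were updated through RefSeq names of GRCm38.p6 (22267 by accession, 1415 by symbol, 557 by older symbol, 765 kept). Groups came from the sample titles. limma 3.58.1 in R 4.3.3 fitted 3 group means to all 6 arrays, with empirical Bayes (prior degrees of freedom 3.885, residual 3), two-sided tests and adjustment by Benjamini-Hochberg across the 21330 at 0.05. Intervals are 95% from the moderated fit. The fit was also run on simulated data, and the outcome is not reported here. No read depth exists for arrays, so their number limits the precision.

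The T cell genes and the lists were chosen with earlier results of these data known. The naming rule gives all 10 T cell genes, the 2 genes of smallest unadjusted p per list in PC3 minus Control and in LN4 minus Control, of which the text shows some, and the 8 genes most like the CD3 mean. Defining markers of thymus and lymph node were added. Some genes that the rule names are not reported here. Alternatives were other filters, array weights, a robust prior, detection class as a block, arrays set to 1 median, values relative to Ptprc, and arrays left out. Figures used Python 3.11.15 with matplotlib 3.10.9.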

Additional observations from a re-analysis of the deposited data

How the results depend on the processing

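No T cell gene passed an adjusted p of 0.05 in any comparison under the alternatives that tested single genes. Values relative to Ptprc were computed for the median alone. The smallest adjusted p was 0.0635, for Cd28 in LN4 minus PC3 with both arrays that hold squamous genes left out, a limma fit whose spread rests on the 2 Control lungs alone. That fit passed 514 probe sets in PC3 minus Control, 200 in LN4 minus Control and 2593 in LN4 minus PC3, where all 6 arrays gave 0. Leaving out 1 array at a time gave 0 to 853 probe sets in LN4 minus Control and 0 to 715 in LN4 minus PC3, the higher counts without LN4 replicate 1, so that the array with squamous and muscle genes stood alone for LN4 and was assumed to vary like the other groups. PC3 minus Control stayed at 0.

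The median change of the 10 genes lay between -0.20 and -0.12 in PC3 minus Control when 1 array was left out, between -0.39 and -0.019 in LN4 minus Control and between -0.24 and 0.12 in LN4 minus PC3. The low end of both LN4 ranges came without LN4 replicate 1 and the high end without LN4 replicate 3. With both arrays that hold squamous genes left out it was -0.019 in LN4 minus Control and 0.059 in LN4 minus PC3. Relative to Ptprc it was 0.47 in LN4 minus Control and 0.60 in LN4 minus PC3, since Ptprc itself was lower in LN4 lungs. Ptprc lay above the negative control limit and the 10 genes below it, so these values do not give T cells as a share of leukocytes.

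Single genes turned sign as follows. With both arrays left out, PC3 minus Control was 0.025 for Cd3g and 0.22 for Il7r, LN4 minus Control was 0.25 for Cd3e, 0.034 for Cd8b1 and 1e-05 for Lck, and LN4 minus PC3 was 0.15 for Cd8a. With arrays set to the same median, Lck in PC3 minus Control was -0.00079. With 1 array left out, PC3 minus Control ranged from -0.82 to 0.025 for Cd3g, -0.34 to 0.22 for Il7r, -0.15 to 0.25 for Cd4 and -0.075 to 0.12 for Lck. LN4 minus Control ranged from -0.46 to 0.25 for Cd3e, -0.38 to 0.034 for Cd8b1, -0.17 to 0.21 for Cd4, -0.23 to 1e-05 for Lck and -0.049 to 0.016 for Cd28. LN4 minus PC3 ranged from -0.13 to 0.36 for Cd3d, -0.30 to 0.41 for Cd3e, -0.55 to 0.29 for Cd3g, -0.23 to 0.16 for Cd4, -0.23 to 0.065 for Cd8a, -0.14 to 0.27 for Cd8b1, -0.54 to 0.021 for Il7r and -0.24 to 0.38 for Zap70. The causes were not tested.

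The other filters, array weights, the robust prior and detection class as a block leave the differences between group means as they are in this balanced design, so they bear on the p-values alone and not on the signs. With the dimmer 50% of probe sets left out, 3 of the 10 remained tested. No gene had a second probe set, so the next brightest could not be used. No paired analysis was possible because the groups share at most 1 replicate number, and this concerns pairing by number, since detection class was fitted as a block. Signal near the negative controls limits every value of these genes.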
